A study of Rattus norvegicus with 12 samples.

Results

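The genes described here encode collagen chains, measured on 12 one-colour arrays in RNA of rat calvaria, the bony roof of the skull, 6 h after surgery. All non-control probes whose gene name in the array files has the form Col, a number, a and a number were taken, a probe was kept when it was well above background on 4 or more of the 12 arrays, and each gene was represented by its brightest probe. The name rule took 45 genes with 82 probes, and 38 of them passed the filter, of 22996 genes in all. Among the 38, Col4a3bp encodes a ceramide transfer protein and not a collagen, so it was left out of the counts of chains, and 37 collagen chains remained. By structure they were 11 fibrillar chains, 4 chains of the basement membrane collagen type IV and 22 chains of other types. Of these 37, 35 were well above background on all 12 arrays, Col25a1 on 11 and Col17a1 on 9.

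Animals were 10 weeks old, and the strain and sex are not given in the sources used here. In the laser group (n = 4) a bone defect of 8 by 3 mm was ablated with 3 strokes of an Er:YAG laser, whose infrared light is strongly absorbed by water, at an output of 127 mJ per pulse and 20 Hz. In the bur group (n = 4) a rotating bur cut an equal defect. In the control group (n = 4) the periosteum, the fibrous sheath of bone, was taken off and the bone was left uncut. The comparisons ask how collagen transcripts in bone differed within hours of either way of cutting, and whether the laser and the bur differed from each other.

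Collagens are secreted proteins in which 3 chains wind into a triple helix. Fibrillar collagens assemble into the banded fibrils that give bone, cartilage and soft tissue their strength, network collagens such as type IV form the sheets of basement membranes, and further types decorate fibrils, form filaments around cells or span the cell membrane. In bone the main fibril is type I collagen, made by osteoblasts, and minor fibrillar chains are built into it.

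All levels below are log2 of the processed signal after subtraction of each array's 75th percentile, so 0 stands for the level of that percentile, and levels of different probes cannot be set against each other. Differences were tested with limma over all 22996 genes with Benjamini-Hochberg adjustment, and a gene was called higher or lower at an adjusted p under 0.05. Whether the 4 samples of each group stem from different animals is not stated in the labels, and the p-values therefore rest on the spread among these samples alone. Both comparisons with control share the same 4 control arrays. A single slide carried all 4 control arrays, and 2 further slides carried 2 laser and 2 bur arrays apiece, so treatment and slide cannot be told apart in any comparison with control. On spike-in spots treated arrays were brighter than control arrays by 3.21 on the log2 scale before scaling. All 7 osteoblast and osteocyte genes listed, among them Bglap and Ibsp, were well above background on all 12 arrays. On each array 67.8% to 73.7% of all non-control spots were so too, and detection alone does not identify the tissue. Less RNA per cell and fewer cells of a type cannot be told apart in such bulk samples.

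The promoters of 5 chains are shown because the results turn on these genes: Col1a2, a chain of the main bone collagen, Col11a1 and Col24a1, the fibrillar chains with the largest differences from control, and Col4a1 and Col4a2, whose promoters overlap. Sequences are those of RefSeq on assembly GRCr8, 5′ to 3′ on the strand of the gene, from 250 bases before to 50 after the annotated start. Capitals mark each match, on either strand, to the TATA box letters (TATAAA), the GC box letters (GGGCGG) or the CCAAT box letters (CCAAT).
Col1a2 (chr4:33518307-33518606, plus strand): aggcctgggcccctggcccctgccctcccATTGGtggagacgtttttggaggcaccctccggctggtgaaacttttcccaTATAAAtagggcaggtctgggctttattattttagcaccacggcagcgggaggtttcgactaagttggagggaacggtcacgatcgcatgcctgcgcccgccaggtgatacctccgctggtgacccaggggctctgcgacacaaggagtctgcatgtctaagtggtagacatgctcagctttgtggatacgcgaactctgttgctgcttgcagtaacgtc
Col11a1 (chr2:204508886-204509185, plus strand): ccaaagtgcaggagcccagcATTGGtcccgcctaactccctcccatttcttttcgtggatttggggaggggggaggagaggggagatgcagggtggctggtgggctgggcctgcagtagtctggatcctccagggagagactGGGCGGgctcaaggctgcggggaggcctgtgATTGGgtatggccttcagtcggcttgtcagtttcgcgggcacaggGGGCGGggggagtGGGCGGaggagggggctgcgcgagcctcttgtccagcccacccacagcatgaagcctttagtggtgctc
Col24a1 (chr2:236872384-236872683, plus strand): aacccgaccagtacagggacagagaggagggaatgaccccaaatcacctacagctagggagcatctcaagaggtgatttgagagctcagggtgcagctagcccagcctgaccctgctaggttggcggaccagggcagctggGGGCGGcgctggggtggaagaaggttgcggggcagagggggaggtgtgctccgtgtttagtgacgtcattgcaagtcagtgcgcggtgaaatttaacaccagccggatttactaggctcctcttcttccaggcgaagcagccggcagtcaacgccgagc
Col4a1 (chr16:84885347-84885646, plus strand): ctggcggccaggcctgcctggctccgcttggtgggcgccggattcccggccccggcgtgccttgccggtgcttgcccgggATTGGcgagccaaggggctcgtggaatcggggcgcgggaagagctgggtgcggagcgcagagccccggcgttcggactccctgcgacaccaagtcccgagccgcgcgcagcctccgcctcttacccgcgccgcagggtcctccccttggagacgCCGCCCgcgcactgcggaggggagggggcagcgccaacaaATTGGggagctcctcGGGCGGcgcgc
Col4a2 (chr16:84885471-84885770, minus strand): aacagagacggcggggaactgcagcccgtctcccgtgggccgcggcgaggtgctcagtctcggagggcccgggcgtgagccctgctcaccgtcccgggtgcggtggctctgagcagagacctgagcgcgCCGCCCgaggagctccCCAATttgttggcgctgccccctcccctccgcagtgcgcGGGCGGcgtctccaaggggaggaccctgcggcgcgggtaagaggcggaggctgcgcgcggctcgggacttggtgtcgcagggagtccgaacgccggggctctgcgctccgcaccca

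Of the 37 chains, 28 had a promoter in the RefSeq table. GGGCGG, the letters of a GC box, was found in 17 of these 28 (60.7%), against 34.9% of all 27457 promoters of the same length. TATAAA was in 3 of the 28 (10.7%), against 14.3% of all, and CCAAT was in 8 (28.6%), against 37.7% of all. The 28 promoters were also richer in G and C, with a median of 59.7% against 52.3% over all promoters. Of the 8 fibrillar chains with a promoter, Col1a2 was the one with a TATAAA match, which began at position -170 from the annotated start. Col1a1, Col2a1 and Col3a1 had no promoter entry and were not searched. A match describes letters in a window and is no site. Col4a1 and Col4a2 start back to back on opposite strands of chromosome 16, 77 bases apart, and their 300-base windows share 176 bases.

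Most fibrillar chains rose in both kinds of cut bone. In laser-ablated bone 8 of 11 fibrillar chains were higher and 0 lower, with a median log2 difference of 1.45, against a median of 0.21 over all genes tested, of which 32.2% were called higher and 17.6% lower. In bur-drilled bone 10 of 11 were higher and 0 lower, with a median of 1.32, against 0.23 over all genes, of which 32.7% were called higher and 18.3% lower. These 8 chains were higher in both comparisons (Col1a1, Col1a2, Col2a1, Col5a1, Col5a2, Col11a1, Col11a2 and Col24a1), and in each of them every treated array was above every control array. Both comparisons use the same control arrays, and the share of all genes higher in both was not computed.

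Of these 8, the chains of type I collagen, the main fibril of bone, had the smallest differences on the probes used. Differences between chains were not tested. Col1a1 encodes its alpha1 chain, with a probe at chr10:83639260-83639319 on the array's rat build RGSCv3.4. Its level was 10.19, 10.08, 9.96 and 9.98 on the laser arrays, 10.57, 9.74, 9.75 and 9.73 on the bur arrays and 9.50, 9.20, 9.19 and 9.06 on the control arrays. All treated arrays lay above all control arrays, and bur replicate 1 stood above the other bur arrays. Col1a1 was 1.76-fold higher in laser bone (log2 0.82, SE 0.19, limma adjusted p = 0.00532) and 1.64-fold higher in bur bone (log2 0.71, SE 0.19, adjusted p = 0.0104). This is among the brightest probes of the array, and under quantile normalization, which gives all arrays the same distribution, its differences shrank to 0.10 for laser (adjusted p = 0.526) and 0.27 for bur (adjusted p = 0.101). A further Col1a1 probe, which is less bright, passed in both comparisons (log2 1.21 for laser and 1.14 for bur). These values were above those of a further kept Col5a1 probe, so the order of the chains depends on the probe.

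Col1a2, the alpha2 chain of type I collagen, had 9.21, 8.97, 8.69 and 8.62 on laser arrays, 9.16, 8.79, 8.35 and 8.38 on bur arrays and 7.88, 7.71, 7.57 and 7.29 on control arrays. Again the lowest treated array was above the highest control array. The difference was 2.39-fold for laser (log2 1.26, SE 0.21, adjusted p = 0.00101) and 2.08-fold for bur (log2 1.05, SE 0.21, adjusted p = 0.00254).

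**Figure D1:**
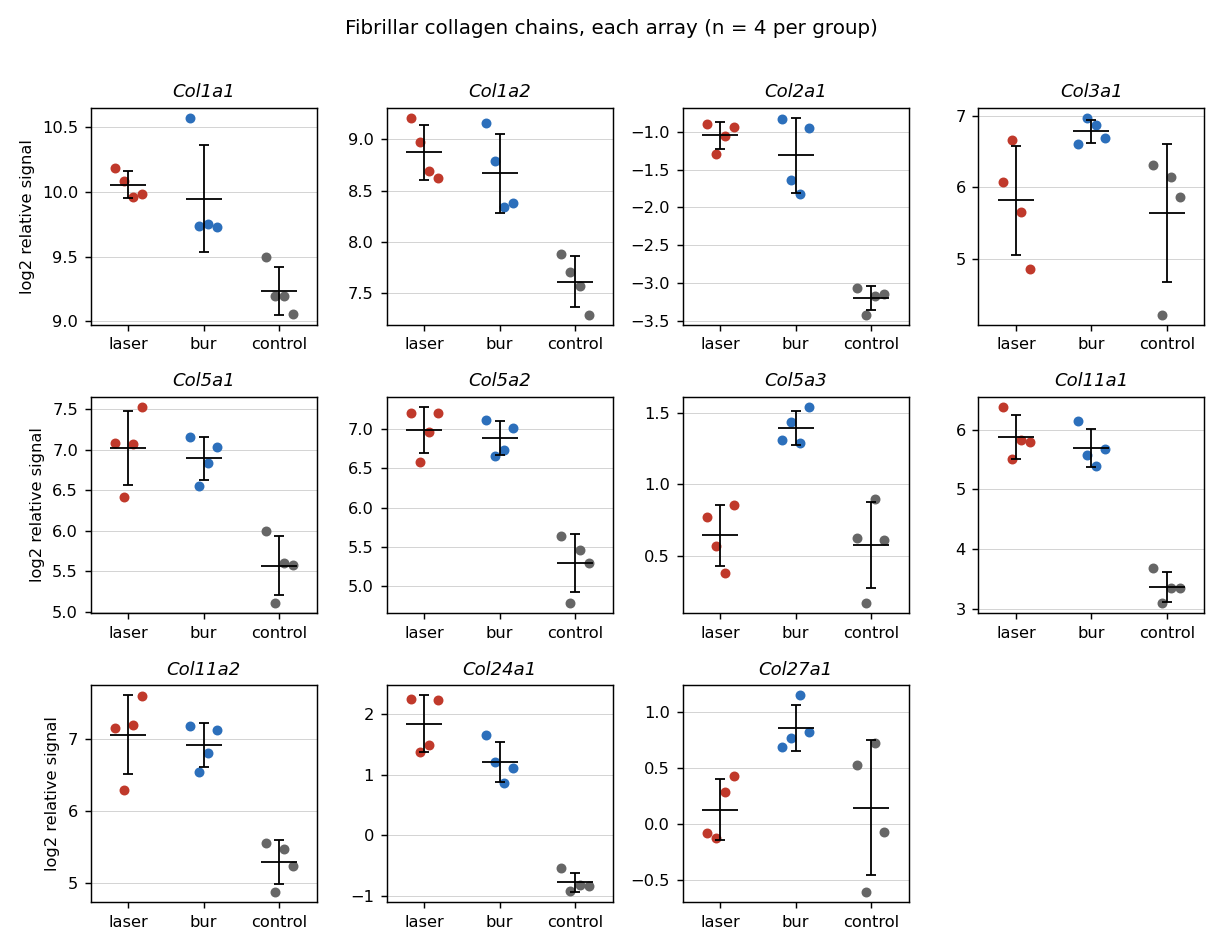
Level of the 11 fibrillar collagen chains on each array, as log2 signal relative to the array's 75th percentile, with points for the 4 laser, 4 bur and 4 control arrays and a bar for the group mean with its SD. In 8 panels every treated point lies above every control point, while in the panels of Col5a3 and Col27a1 the bur points lie above all laser points.

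The minor fibrillar chains among these 8 showed larger differences than type I collagen on the probes used. For laser, those of Col5a3 and Col27a1, given below, were smaller. Types V and XI collagen are built into type I and type II fibrils and limit their width. Col5a1 had 7.09, 6.42, 7.07 and 7.53 on laser arrays, 7.16, 6.55, 6.84 and 7.03 on bur arrays and 6.00, 5.11, 5.60 and 5.59 on control arrays. Col5a2 had 7.21, 6.58, 6.97 and 7.20 on laser arrays, 7.11, 6.66, 6.73 and 7.01 on bur arrays and 5.64, 4.78, 5.46 and 5.30 on control arrays. For both chains the treated groups overlapped each other and neither overlapped the control group. Col5a1 was 2.74-fold higher for laser (adjusted p = 0.00112) and 2.50-fold for bur (adjusted p = 0.00185), and Col5a2 was 3.24-fold higher for laser (adjusted p = 0.000228) and 3.00-fold for bur (adjusted p = 0.000341).

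Col11a1, a chain of type XI collagen known from cartilage and also made by bone cells, had 6.38, 5.50, 5.83 and 5.79 on laser arrays, 6.14, 5.57, 5.40 and 5.68 on bur arrays and 3.69, 3.09, 3.34 and 3.35 on control arrays. The gap between the lowest treated and the highest control array was wider than the spread within any group. It was 5.71-fold higher for laser (log2 2.51, SE 0.22, adjusted p = 7.40e-05) and 5.04-fold higher for bur (log2 2.33, SE 0.22, adjusted p = 0.000132), the smallest adjusted p of any collagen in each comparison. Its partner chain Col11a2 was 3.43-fold higher for laser and 3.10-fold for bur, and all 3 of its kept probes passed in both, with log2 differences between 1.02 and 2.88 for laser and between 1.36 and 2.87 for bur. Col24a1, whose type XXIV collagen is known in mouse from developing bone, had 2.25, 1.38, 1.49 and 2.23 on laser arrays, 1.66, 1.20, 0.86 and 1.11 on bur arrays and -0.55, -0.92, -0.82 and -0.84 on control arrays. Control arrays lay well below both treated groups, which overlapped. The difference was 6.14-fold for laser (log2 2.62, adjusted p = 8.24e-05), the largest of any collagen, and 3.96-fold for bur (log2 1.99, adjusted p = 0.000231).

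Col2a1, the chain of type II collagen of cartilage, had -0.90, -1.29, -1.06 and -0.94 on laser arrays, -0.83, -1.64, -1.83 and -0.95 on bur arrays and -3.07, -3.42, -3.17 and -3.14 on control arrays. It was dim, though well above background on all 12 arrays, and treated and control arrays did not overlap. The differences were 4.45-fold for laser (log2 2.15, SE 0.22, adjusted p = 0.000115) and 3.70-fold for bur (log2 1.89, SE 0.22, adjusted p = 0.000215). With normexp background correction they were 0.89 and 0.71 on the log2 scale and still passed. Of 5 measured chondrocyte markers, 1 was higher for laser and 2 for bur and 0 lower. Over all genes 32.2% were higher and 17.6% lower for laser, and 32.7% and 18.3% for bur. The mean level of the marker list lay between -4.09 and -2.58 on laser arrays, -3.06 and -1.88 on bur arrays and -4.11 and -2.88 on control arrays. Among them Matn1, a cartilage matrix protein, was at least 3.58-fold higher for laser and 3.11-fold for bur, and is counted in both. It was not well above background on any control array. It thus passed the filter through treated arrays alone, and its calls are not independent of that filter. Acan, the cartilage proteoglycan aggrecan, passed for bur (log2 0.89, adjusted p = 0.0487) and did not pass for laser (log2 0.37, adjusted p = 0.378). Hapln1, Comp and Cnmd did not pass in either comparison, and the part of cartilage cells in the Col2a1 difference was not tested. Col10a1, the collagen of hypertrophic cartilage, was well above background on 1 of 12 arrays at most and was not tested.

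The other 3 fibrillar chains did not pass in laser bone. Col3a1, the chain of type III collagen of vessels, skin and young wounds, had 6.08, 6.67, 5.66 and 4.87 on laser arrays, 6.60, 6.97, 6.86 and 6.70 on bur arrays and 6.32, 4.22, 6.15 and 5.87 on control arrays. Bur arrays were close together and above all controls, while laser arrays spread over most of the range of the control arrays, of which replicate 2 was low. The difference did not pass for laser (log2 0.18, SE 0.46, adjusted p = 0.761) or for bur (log2 1.14, SE 0.46, adjusted p = 0.0578), and the bur difference passed without control replicate 1 (log2 1.37, adjusted p = 0.0412) and without laser replicate 2 (adjusted p = 0.0493) or 4 (adjusted p = 0.0421). Without control replicate 2 the bur difference was 0.67. With normexp background correction it was 1.26 and passed (adjusted p = 0.0372).

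Col5a3, a type V chain, had 0.77, 0.57, 0.38 and 0.86 on laser arrays, 1.31, 1.44, 1.28 and 1.54 on bur arrays and 0.62, 0.17, 0.90 and 0.61 on control arrays. All bur arrays were above all laser and all control arrays, and laser arrays overlapped the controls. It was 1.76-fold higher for bur (adjusted p = 0.00255), with a log2 difference of 0.068 for laser (adjusted p = 0.747). Col27a1, a fibrillar chain of cartilage, was 1.64-fold higher for bur (log2 0.71, SE 0.27, adjusted p = 0.0442), and that call held under 5 of 17 further settings and in 3 of the 12 fits omitting an array, those without laser replicate 4, control replicate 1 or control replicate 3. Without control replicate 2 it was 0.46. Its laser difference was -0.015 on the log2 scale (adjusted p = 0.966). A further kept Col27a1 probe gave 0.41 for bur and -0.46 for laser and passed in neither.

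Osteoblast and osteocyte markers were also higher in cut bone. Of 7 measured, 7 were higher for laser and 5 for bur, against 32.2% and 32.7% of all genes, and their mean level lay between 5.36 and 5.82 on laser arrays, 4.93 and 5.23 on bur arrays and 3.69 and 4.26 on control arrays. Against the same shares, fibroblast and periosteal markers were higher in 3 of 6 in each comparison, and tendon markers in 2 of 3, including Scx, the tendon cell factor scleraxis (log2 2.43 for laser and 2.55 for bur). Against 17.6% of all genes lower for laser and 18.3% for bur, leukocyte markers were lower in 3 of 4, erythroid markers in 3 of 4 and adipocyte markers in 2 of 2 in each comparison. Of 4 Schwann and glial cell markers, 0 were higher and 2 lower for laser, and 1 was higher and 2 lower for bur. The mean level of the erythroid list lay between 0.82 and 4.40 on laser arrays, 2.50 and 4.55 on bur arrays and 5.37 and 5.99 on control arrays. The part of such cells in the collagen differences was not tested. The collagens were also bright, with 15 of the 37 chains in the brightest of 5 equal bins of genes, where 43.8% of genes were called higher for laser and 41.9% for bur. The split of calls over all genes depends on the scaling, with 64.7% of calls higher for laser and 64.2% for bur as tested, and 55.3% to 58.0% for laser and 51.6% to 56.8% for bur under 5 other scalings or background corrections. Under the same 5 the median of the fibrillar chains stayed between 1.11 and 1.35 for laser and between 1.07 and 1.26 for bur.

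Type IV collagen, the network of basement membranes, was mixed. Of 4 chains measured, 1 was higher and 1 lower for laser, against 32.2% and 17.6% of all genes. For bur 2 were higher and 0 lower, against 32.7% and 18.3%. Col4a1 had 2.01, 2.27, 1.68 and 1.60 on laser arrays, 2.32, 2.31, 2.59 and 2.53 on bur arrays and 2.11, 1.34, 2.02 and 1.90 on control arrays. Col4a2, whose promoter overlaps that of Col4a1 in the sequences above, had -2.18, -2.27, -2.87 and -3.25 on laser arrays, -1.98, -2.11, -1.77 and -2.17 on bur arrays and -1.62, -2.24, -1.57 and -1.52 on control arrays. These are the chains of the form of type IV collagen found in most basement membranes. In both, every bur array was above every laser array, and laser arrays overlapped the controls.

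Col4a1 was 1.51-fold higher for bur (log2 0.59, SE 0.20, adjusted p = 0.0275), a call lost without bur replicate 3, bur replicate 4 or control replicate 2 and under 8 of 17 further settings, and its laser difference was 0.046 (adjusted p = 0.858). Col4a2 was 1.88-fold lower for laser (log2 -0.91, SE 0.25, adjusted p = 0.0114), with a bur difference of -0.27 (adjusted p = 0.370). With treated arrays of the first treated slide alone the Col4a2 laser difference was -0.49 and did not pass (adjusted p = 0.108). Probes for these genes lay at chr16:83157776-83157835 and chr16:82900301-82900360 on RGSCv3.4.

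Col4a6, a chain of a type IV form with a narrower range of tissues, had 3.35, 1.70, 0.37 and 0.37 on laser arrays, 2.39, 1.21, 0.053 and 0.32 on bur arrays and -0.44, -1.73, -1.04 and -1.14 on control arrays. All treated arrays were above the controls, and replicates 1 and 2 of both treated groups, which lay on the first treated slide, were above replicates 3 and 4. The probe used passed for laser (log2 2.54, SE 0.68, adjusted p = 0.0108) and for bur (log2 2.08, SE 0.68, adjusted p = 0.0259). The bur call was lost without bur replicate 1 (log2 1.61, adjusted p = 0.0722), bur replicate 2, control replicate 2 or control replicate 4. Over the settings tried other than leaving out 1 array, the laser difference lay between 1.46 and 3.61. A further kept probe gave 0.83 for laser and 1.50 for bur and did not pass in either. Col4a5 did not pass (log2 -0.13 for laser and -0.080 for bur), and Col4a3 and Col4a4 were not tested, since they were well above background on 3 and 2 arrays.

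Markers of vessel cells were mixed as well. Of 7 endothelial markers 1 was higher and 1 lower for laser, against 32.2% and 17.6% of all genes. For bur 2 were higher and 1 lower, against 32.7% and 18.3%. The list mean was 0.88 ± 0.23 on laser arrays, 0.90 ± 0.15 on bur arrays and 0.98 ± 0.17 on control arrays (SD, n = 4 each). Against the same shares, 2 of 5 mural cell markers were higher for laser and 3 for bur. Among them was Acta2, the actin of smooth muscle (log2 2.10 for laser and 2.43 for bur). Their part in the type IV values was not tested. Among the multiplexins, which lie at the edge of basement membranes, Col15a1 was higher in both comparisons (2.65-fold for laser, adjusted p = 0.00101, and 2.77-fold for bur, adjusted p = 0.000833). Its arrays gave 2.61, 1.99, 2.27 and 2.66 for laser, 2.64, 2.22, 2.29 and 2.63 for bur and 1.47, 0.35, 1.12 and 0.97 for control, without overlap between treated and control bone. Col18a1, the source of endostatin, did not pass (log2 -0.24 for laser and 0.50 for bur). Col7a1, the anchoring fibril chain of skin, passed for laser (log2 0.94, adjusted p = 0.0142) and not for bur (log2 0.59, adjusted p = 0.0868). Its bur difference passed without control replicate 3 (adjusted p = 0.0498), with the replicate block (adjusted p = 0.0154) and in the authors' deposited table (log2 0.30, adjusted p = 0.0222). The laser call was lost with normexp background correction (adjusted p = 0.0504) and with treated arrays of the first treated slide only (log2 0.72, adjusted p = 0.142). It was also lost against a minimum log2 fold change of 1.

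**Figure D2:**
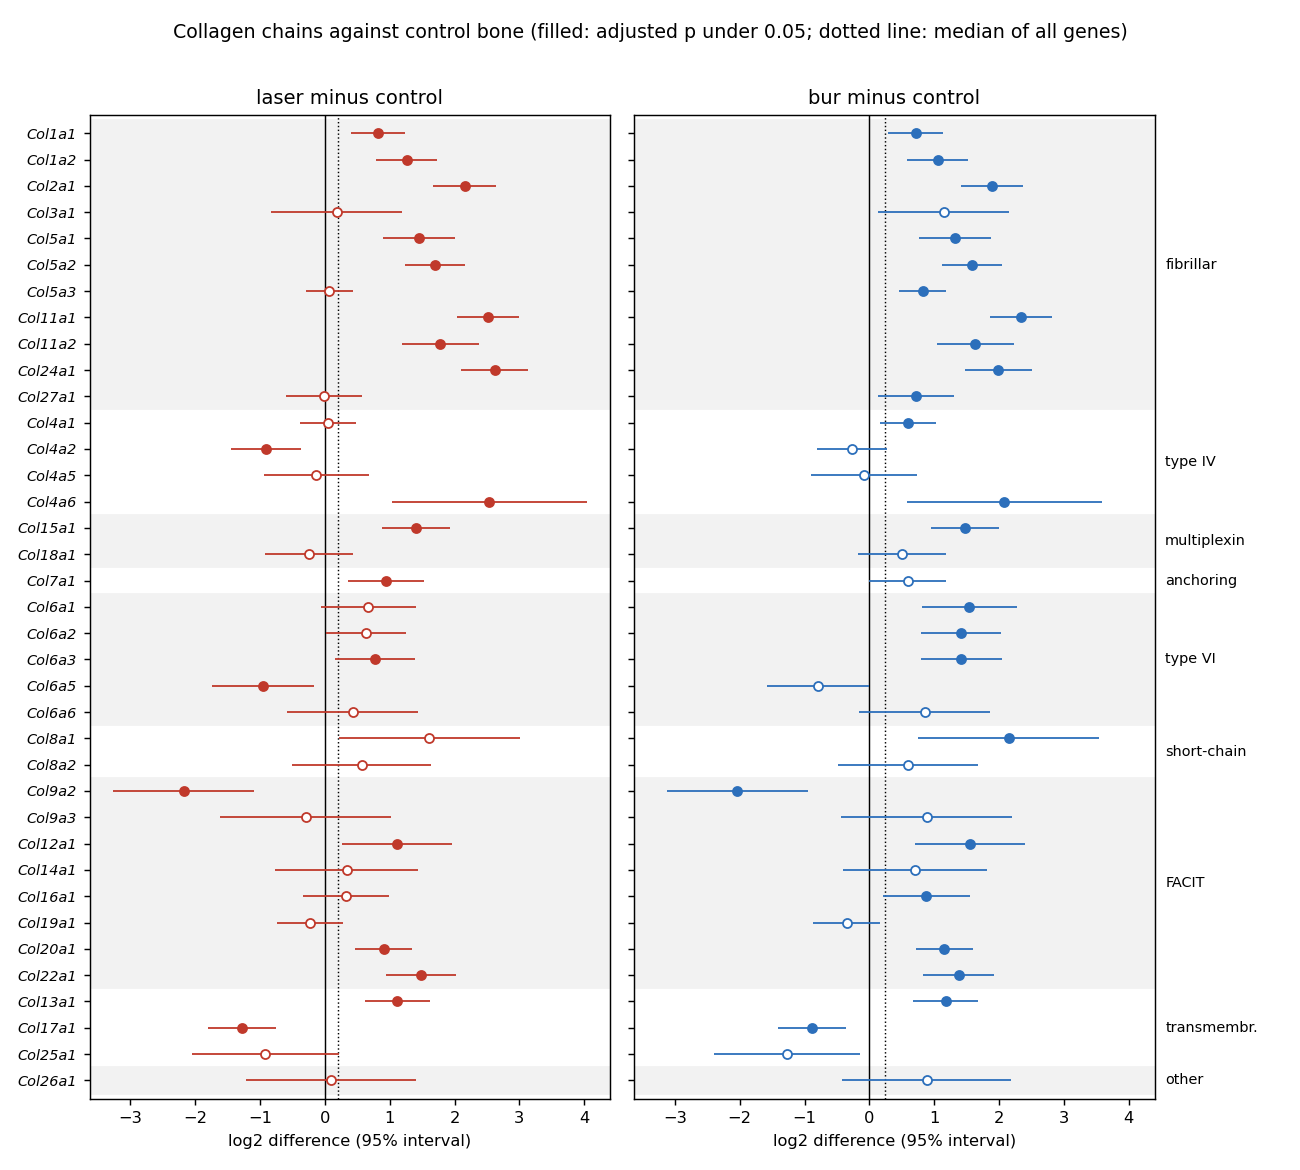
Log2 difference of each of the 37 collagen chains with its 95% interval, laser minus control on the left and bur minus control on the right, grouped by type. Filled points passed at an adjusted p under 0.05, and the dotted line is the median over all genes (0.21 and 0.23), with fibrillar chains mostly to the right of it and chains such as Col9a2 and Col17a1 to the left of 0.

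Chains of the other types were split. Of 22 measured, 7 were higher and 3 lower for laser, with a median of 0.50, and 10 were higher and 2 lower for bur, with a median of 0.88. Over all genes 32.2% were higher and 17.6% lower for laser and 32.7% and 18.3% for bur, so the laser counts of these 22 chains were near the shares over all genes. Over all 37 chains the counts were 16 higher and 4 lower for laser and 22 higher and 2 lower for bur, with medians of 0.64 and 0.89. Of these chains 15 were higher and 2 lower in both. The share of all genes called alike in both was not computed, so the counts in both cannot be set against it. In either direction 20 chains passed for laser and 24 for bur, against 49.8% and 51% of all genes. In 14 chains every laser array was above every control array and in 1 below, against 30.9% and 17.7% of all genes. For bur these numbers were 21 and 3 chains, against 30.4% and 15.6% of all genes.

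Type VI collagen forms beaded filaments around cells, and its common form is built from the chains of Col6a1, Col6a2 and Col6a3. Col6a1 had 3.22, 3.68, 2.65 and 2.15 on laser arrays, 3.64, 3.93, 3.85 and 3.76 on bur arrays and 2.72, 1.50, 2.19 and 2.63 on control arrays. Col6a2 had 5.04, 5.25, 4.56 and 4.20 on laser arrays, 5.46, 5.54, 5.59 and 5.58 on bur arrays and 4.59, 3.39, 4.01 and 4.51 on control arrays. Col6a3 had 5.13, 5.11, 4.80 and 4.67 on laser arrays, 5.55, 5.52, 5.75 and 5.49 on bur arrays and 4.61, 3.19, 4.67 and 4.16 on control arrays. For all 3 genes the bur arrays were tightly grouped and above every control array, and laser arrays had means in between and overlapped the controls.

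These 3 chains each passed for bur, Col6a1 2.91-fold higher (adjusted p = 0.00365), Col6a2 2.67-fold (adjusted p = 0.00234) and Col6a3 2.67-fold (adjusted p = 0.00232). For laser, Col6a3 passed (log2 0.77, SE 0.28, adjusted p = 0.0411), and Col6a1 (log2 0.67, adjusted p = 0.116) and Col6a2 (log2 0.64, adjusted p = 0.0802) did not. Of 4 kept Col6a3 probes 1 passed for laser, with values from -0.061 to 0.77, and their mean gave 0.32 (adjusted p = 0.482). The Col6a3 laser call held under 6 of 17 further settings and in 5 of the 12 fits omitting an array, those without laser replicate 4, bur replicate 1 or 3 and control replicate 1 or 3, and without control replicate 2 the difference was 0.45. Without laser replicate 4, the array with the lowest Col6a1 and Col6a2 of its group, Col6a1 (log2 0.93, adjusted p = 0.0316) and Col6a2 (log2 0.82, adjusted p = 0.0326) passed, and Col6a2 also did without control replicate 1 (adjusted p = 0.0470). A further Col6a1 probe gave -0.81 for laser and 0.30 for bur, neither of which passed, so the probes of this gene disagree in sign for laser. Col6a1 and Col6a2 are next to each other on the rat assembly GRCr8, as are Col3a1 and Col5a2, which differed in whether they passed. Col6a5, which encodes a chain that can take the place of alpha3, was lower for laser (log2 -0.95, SE 0.36, adjusted p = 0.0459), a call that held in 3 of the 12 fits omitting an array, those without laser replicate 4, bur replicate 2 or bur replicate 3. It did not pass for bur in the main fit (log2 -0.80, adjusted p = 0.0823). It did without laser replicate 4 (adjusted p = 0.0478) or bur replicate 3 (adjusted p = 0.0174), and with array weights (adjusted p = 0.0450). It also did with treated arrays of the first treated slide only (adjusted p = 0.00537) and with the mean of its kept probes (log2 -1.40, adjusted p = 0.0164). A further kept Col6a5 probe was lower for laser (log2 -1.67, adjusted p over probes 0.0178) and bur (log2 -2.00, 0.00739). Col6a6 did not pass (log2 0.43 for laser and 0.85 for bur).

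**Figure D3:**
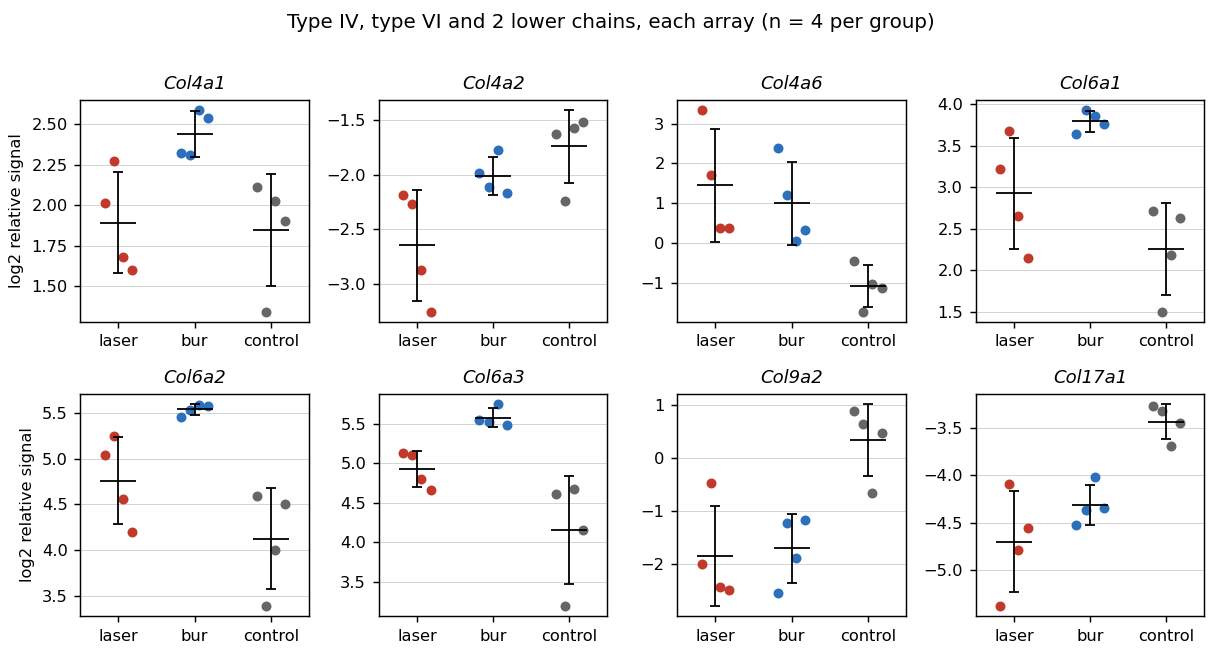
Level of 3 type IV chains, 3 type VI chains, Col9a2 and Col17a1 on each array, as log2 signal relative to the array's 75th percentile, with points for laser, bur and control arrays (4 each) and a bar for the mean with its SD. The bur points of Col6a1, Col6a2 and Col6a3 lie above all control points, and the laser points overlap the control points, while Col17a1 is below all control points on every treated array.

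Fibril-associated collagens sit on the surface of fibrils and link them to other matrix. Of 8 tested, 3 were higher and 1 lower for laser, against 32.2% and 17.6% of all genes. For bur 4 were higher and 1 lower, against 32.7% and 18.3%. Col9a2, a chain of type IX collagen on cartilage fibrils, had -1.99, -0.47, -2.42 and -2.48 on laser arrays, -2.53, -1.23, -1.88 and -1.16 on bur arrays and 0.88, 0.64, -0.65 and 0.47 on control arrays. Laser replicate 2 overlapped control replicate 3, while bur arrays were all below the controls. It was 4.52-fold lower for laser (log2 -2.18, SE 0.49, adjusted p = 0.00463) and 4.10-fold lower for bur (log2 -2.04, SE 0.49, adjusted p = 0.00643), opposite to Col2a1, the chain of the fibril that type IX collagen decorates. Col9a3, another chain of type IX, did not pass (log2 -0.29 for laser and 0.89 for bur), except for bur without bur replicate 1 (log2 1.45, adjusted p = 0.0342), and Col9a1 was well above background on 2 arrays and not tested.

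Col12a1, whose type XII collagen coats type I fibrils of tendon and periosteum, had 4.73, 4.81, 4.42 and 3.14 on laser arrays, 4.20, 4.87, 4.77 and 5.03 on bur arrays and 3.71, 2.47, 2.94 and 3.52 on control arrays. Bur arrays were above all controls, and laser replicate 4 fell among them. It was 2.17-fold higher for laser (adjusted p = 0.0332) and 2.94-fold for bur (adjusted p = 0.00729), and the laser call was lost without laser replicate 1, 2 or 3 or control replicate 2 or 3, and under 10 of 17 further settings, among them quantile normalization (log2 0.86, adjusted p = 0.0919). Col22a1, known from the junction of muscle and tendon, was higher in both comparisons (2.80-fold for laser, adjusted p = 0.000927, and 2.59-fold for bur, adjusted p = 0.00141), as was Col20a1 (log2 0.90 for laser, adjusted p = 0.00386, and 1.16 for bur, adjusted p = 0.00114). Neither overlapped its controls. Of 4 kept Col20a1 probes, 2 passed for laser and 3 for bur, and the laser values ran from -0.21 to 1.37, so these probes disagree in sign. Col16a1 passed for bur (log2 0.88, adjusted p = 0.0324, a call lost without bur replicate 2, 3 or 4 or control replicate 2 or 3, and under 10 of 17 further settings) and not for laser (log2 0.32). Without control replicate 2 its bur difference was 0.54. Col14a1 and Col19a1 did not pass, with log2 differences of 0.34 and -0.23 for laser and of 0.70 and -0.35 for bur. A further, dimmer Col19a1 probe, well above background on 9 arrays, passed for bur (log2 -1.27, adjusted p over probes 0.0391) and not for laser (log2 -1.07). With the mean of its kept probes Col19a1 was lower for bur (log2 -0.81, adjusted p = 0.0266).

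Transmembrane collagens went in both directions. Col13a1, which takes part in cell adhesion, had 3.48, 2.73, 3.42 and 3.52 on laser arrays, 3.52, 2.99, 3.30 and 3.57 on bur arrays and 2.46, 1.65, 2.32 and 2.24 on control arrays. Treated arrays were all above the controls, by 2.17-fold for laser (adjusted p = 0.00277) and 2.26-fold for bur (adjusted p = 0.00214). A further kept Col13a1 probe gave 0.61 for laser and 0.60 for bur on the log2 scale and passed in neither. Col17a1, the hemidesmosome collagen of basal keratinocytes, had -5.38, -4.10, -4.79 and -4.56 on laser arrays, -4.53, -4.37, -4.02 and -4.35 on bur arrays and -3.27, -3.32, -3.69 and -3.45 on control arrays. All treated arrays were below the controls, and the probe was well above background on 2 of 4 laser, 3 of 4 bur and 4 of 4 control arrays. It was lower for laser (log2 -1.27, adjusted p = 0.00170) and for bur (log2 -0.88, adjusted p = 0.0108).

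Of 4 other keratinocyte markers measured, 3 were higher in each comparison and 1, the keratin Krt1, was lower. Over all genes 32.2% were higher and 17.6% lower for laser, and 32.7% and 18.3% for bur. List means lay between -3.27 and -2.66 on laser arrays, -3.23 and -2.77 on bur arrays and -4.00 and -3.52 on control arrays. Krt5, a keratin of basal keratinocytes, was at least 3.70-fold higher for laser and 3.51-fold for bur, and is counted in both. It was not well above background on any control array, so it passed the filter through treated arrays alone. The part of keratinocytes in the Col17a1 values was not tested. Col25a1, a collagen of neurons, did not pass in the main fit (log2 -0.92 for laser and -1.27 for bur). Without laser replicate 4 it did for laser (log2 -1.35, adjusted p = 0.0318) and bur (adjusted p = 0.0289), and for bur also without laser replicate 1 (adjusted p = 0.0408). For bur it passed under quantile normalization (adjusted p = 0.0480), median centring (adjusted p = 0.0426) and normexp background correction (adjusted p = 0.0321) as well. Treated arrays of the first treated slide alone passed for laser (adjusted p = 0.0232) and bur (adjusted p = 0.0409). The authors' deposited table also called it lower for bur (log2 -0.60, adjusted p = 0.0325). Col26a1 did not pass (log2 0.10 for laser and 0.88 for bur). In the short-chain network family, Col8a1 was 4.43-fold higher for bur (adjusted p = 0.0165) and missed the threshold for laser (log2 1.61, SE 0.63, adjusted p = 0.0537), where laser replicate 4 was low (3.04, 2.91, 2.20 and 0.52 on laser arrays). Without that array the laser difference was 2.16 and passed (adjusted p = 0.0106), as it did without control replicate 1 or 4. For its relative Col8a2 the probe used did not pass (log2 0.57 for laser and 0.60 for bur). A further, dimmer Col8a2 probe, well above background on 10 arrays, passed for bur (log2 1.72, adjusted p over probes 0.00948) and not for laser (log2 0.86). Col28a1, Col6a4 and Col23a1 were well above background on 0, 0 and 3 arrays and were not tested.

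No collagen chain passed in the direct comparison of laser with bur. With limma 0 of 37 chains were called higher and 0 lower, against 0.00435% and 0% of all genes. At an unadjusted p under 0.05, 1 chain was higher and 8 were lower in laser bone, against 4.06% and 2.46% of all genes, and the smallest adjusted p of a chain was 0.410. In the authors' deposited table of laser against bur 0 of the 33 collagen chains it lists were called. A p above the threshold does not show that laser and bur act alike. The 95% intervals reached a median of 0.59 to either side on the log2 scale, and 17 of 37 lay wholly within 1 of 0.

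For 5 fibrillar chains that passed in both comparisons with control, laser and bur arrays overlapped. The laser minus bur difference was 0.11 for Col1a1 (95% interval -0.31 to 0.52), 0.21 for Col1a2 (-0.26 to 0.67), 0.13 for Col5a1 (-0.42 to 0.68), 0.11 for Col5a2 (-0.35 to 0.57) and 0.18 for Col11a1 (-0.30 to 0.66). Differences of 1 or more on the log2 scale are outside these 5 intervals. Col24a1 had a difference of 0.63 (0.11 to 1.15), which did not pass (adjusted p = 0.662).

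In 6 chains every laser array was below every bur array: Col5a3, Col27a1, Col4a1, Col4a2, Col6a2 and Col6a3. In 0 chains was every laser array above. Over all genes, groups separated in this way in 1.52% with laser lower and in 2.06% with laser higher. For Col5a3 the difference was -0.75 (interval -1.12 to -0.39, adjusted p = 0.410), and for Col27a1 -0.73 (-1.32 to -0.14, adjusted p = 0.654). For Col4a1 it was -0.55 (-0.98 to -0.11, adjusted p = 0.644) and for Col4a2 -0.64 (-1.18 to -0.092, adjusted p = 0.693). All 5 type VI chains had negative differences, with Col6a1 at -0.87 (-1.61 to -0.14), Col6a2 at -0.78 (-1.40 to -0.16) and Col6a3 at -0.65 (-1.27 to -0.031), and adjusted p values of 0.681, 0.644 and 0.740.

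Each treated slide held 2 laser and 2 bur arrays, which allows the comparison within a slide. Over the 37 chains the median laser minus bur difference was -0.14 on the first treated slide and -0.43 on the second. Of these chains 16 had the negative sign on both slides, 7 the positive sign on both and 14 opposite signs. The 5 type VI chains were negative on both, with medians of -0.35 and -0.89. Among fibrillar chains, Col5a3 differed by -0.71 and -0.80 and Col27a1 by -0.83 and -0.63, so their differences were of like size on both slides, while Col4a2 differed by -0.18 and -1.09. Laser replicates 3 and 4 lay on the second slide.

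**Figure D4:**
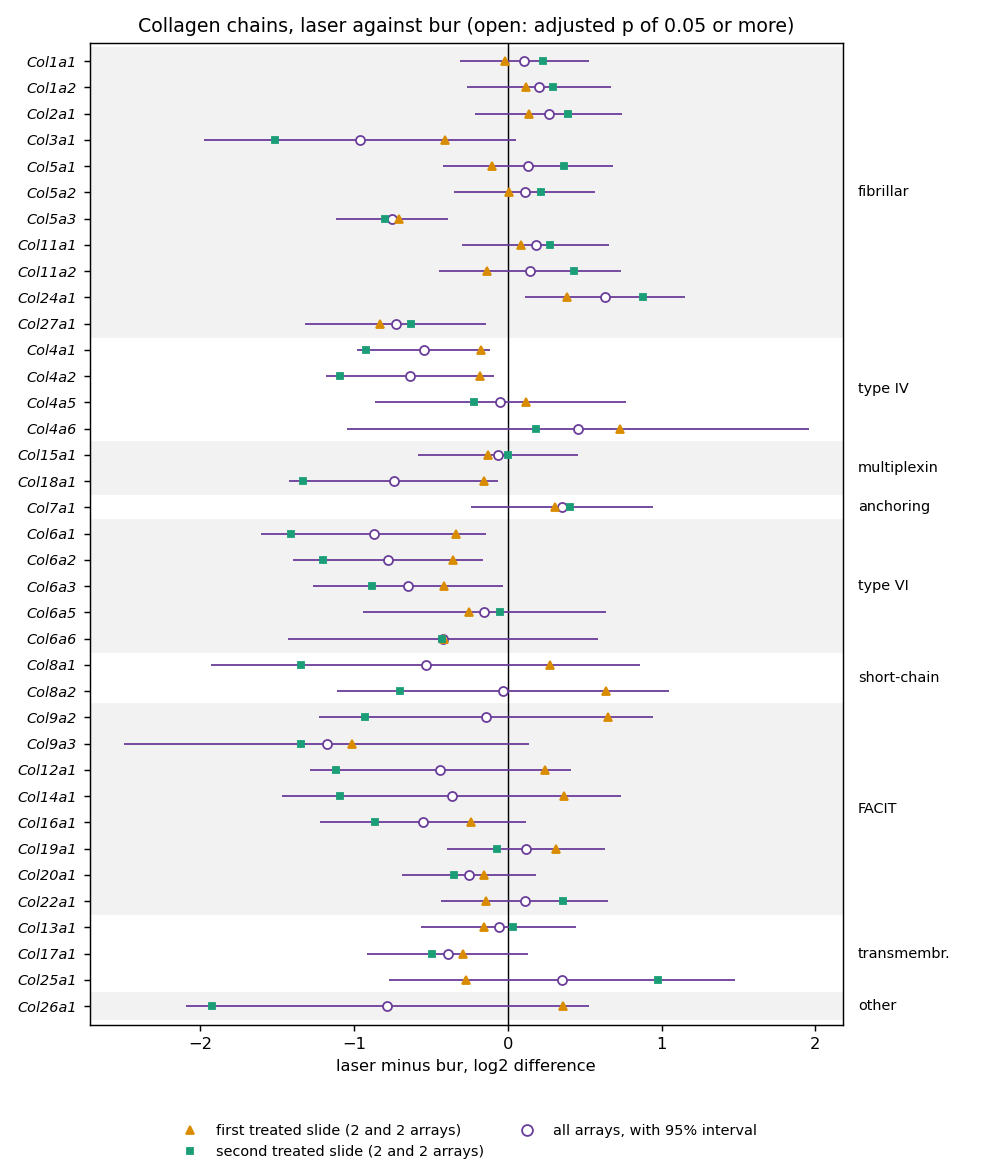
Laser minus bur log2 difference of each of the 37 collagen chains with its 95% interval (open circles, all arrays), and the same within the first treated slide (triangles) and the second (squares), 2 laser and 2 bur arrays each. No chain passed at an adjusted p under 0.05, and the 5 type VI chains lie to the left of 0 on both slides.

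The mean level over all chains was lowest on laser replicate 4 and control replicate 2 within their groups. The mean over the 37 chains was 1.42 on laser replicate 4, with the rest of the laser group between 1.52 and 1.84. It was 0.63 on control replicate 2, with the rest of the control group between 0.94 and 1.37. Bur arrays lay between 1.79 and 2.00. Over the 11 fibrillar chains alone, laser replicate 4 was at 4.93 within a laser range of 4.64 to 5.03, and control replicate 2 was lowest of the controls at 3.11. Skeletal muscle markers had a mean of 4.10 on control replicate 2 and 3.05 on control replicate 4, against -1.31 and -2.55 on the other control arrays and between -1.65 and 0.34 on laser arrays and -2.65 and 0.039 on bur arrays. Of 4 muscle markers 0 passed in either comparison with control, against 49.8% of all genes for laser and 51% for bur. The part of muscle in the collagen values was not tested. With laser replicate 4 and control replicate 2 both left out, a choice made after seeing the values, 17 chains were higher and 5 lower for laser and 20 higher and 3 lower for bur.

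Genes that fold and process collagen were also mostly higher in cut bone. The counts of partner genes stand against 32.2% of all genes called higher and 17.6% lower for laser, and 32.7% and 18.3% for bur. Of 17 procollagen folding and modification genes, 11 were higher and 2 lower for laser (median log2 1.02) and 10 were higher and 1 lower for bur (median 0.74). P4ha1, a catalytic chain of prolyl 4-hydroxylase, which stabilises the triple helix, had 4.85, 4.27, 4.52 and 4.77 on laser arrays, 4.40, 3.91, 3.78 and 4.22 on bur arrays and 2.83, 2.24, 2.51 and 2.87 on control arrays. Treated arrays were all above the controls. It was 3.97-fold higher for laser (adjusted p = 0.000108) and 2.76-fold for bur (adjusted p = 0.000369). Serpinh1, the collagen chaperone Hsp47, was 3.46-fold higher for laser and 2.55-fold for bur, Plod2, a lysyl hydroxylase that sets the kind of cross-link, 3.69-fold and 2.69-fold, P3h4, a partner of lysyl hydroxylation, 2.96-fold and 2.91-fold, and P3h1, a prolyl 3-hydroxylase, 3.33-fold and 2.86-fold. P3h2 was lower for laser (log2 -0.94). Colgalt2, a galactosyltransferase of collagen, was lower in both, well above background on 0 of 4 laser and 1 of 4 bur arrays, and at least 2.50-fold lower for laser (adjusted p = 0.0249) and -1.46 on the log2 scale for bur (adjusted p = 0.0157).

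Of 11 genes of propeptide removal and cross-linking, 8 were higher and 1 lower for laser (median 1.34) and 7 were higher and 0 lower for bur (median 1.02). Pcolce, which enhances removal of the C-terminal propeptide, was 3.68-fold higher for laser (adjusted p = 0.000115) and 3.16-fold for bur (adjusted p = 0.000215). Lox, the lysyl oxidase that starts cross-linking, was 3.53-fold higher for laser and 3.65-fold for bur, and Bmp1, the C-propeptidase, 2.52-fold and 2.62-fold. Adamts14, an N-propeptidase, had 3.37, 3.11, 3.72 and 4.17 on laser arrays, 2.72, 2.23, 2.47 and 2.58 on bur arrays and 1.73, 1.24, 1.95 and 1.35 on control arrays. All laser arrays were above all bur arrays, and these above all control arrays. It rose in both (log2 2.03 for laser and 0.94 for bur), with a laser minus bur difference of 1.09 that did not pass (adjusted p = 0.410). Adamts3, another N-propeptidase, was the one lower for laser (log2 -0.52, adjusted p = 0.0307).

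Of 10 genes of collagen breakdown and uptake, 7 were higher and 2 lower in each comparison. Mmp2, a gelatinase, was 3.62-fold higher for laser (adjusted p = 0.000149) and 3.31-fold for bur (adjusted p = 0.000238). Timp1, a metalloproteinase inhibitor, was 3.03-fold higher for laser and 2.42-fold for bur, Mrc2, an endocytic collagen receptor, 2.56-fold and 2.21-fold, and Mmp14, a membrane-bound collagenase, 1.79-fold and 2.34-fold. The 2 lower genes were Mmp8, the collagenase of neutrophils (log2 -2.11 for laser and -2.93 for bur), and Mmp9, a gelatinase of neutrophils and osteoclasts (log2 -1.52 and -1.45). Mmp13, the collagenase of bone and cartilage cells, did not pass (log2 -0.80 and -0.77).

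**Figure D5:**
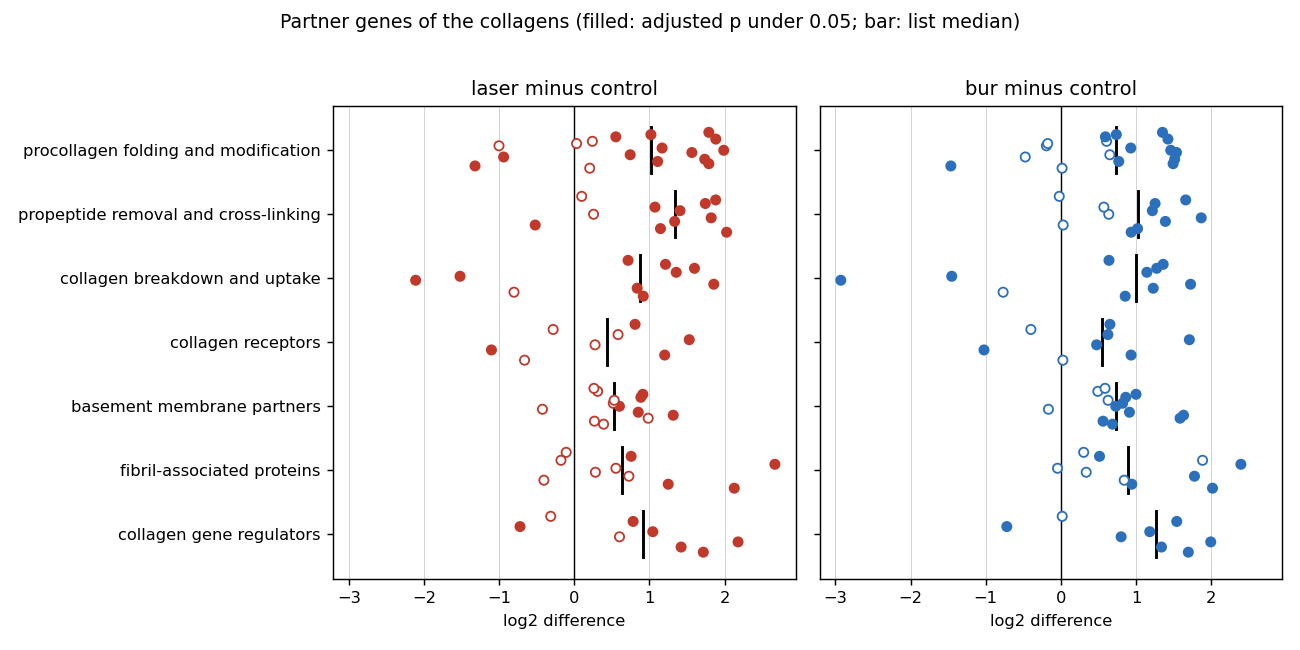
Log2 difference of each measured partner gene of the collagens, in 7 lists, laser minus control on the left and bur minus control on the right, with filled points for an adjusted p under 0.05 and a black bar for the list's median. Folding and cross-linking genes lie mostly to the right of 0, and Mmp8 is the leftmost point in both panels.

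Of 8 collagen receptors, 3 were higher and 1 lower for laser and 5 were higher and 1 lower for bur, so that the laser share was near that over all genes. Itga10, a collagen-binding integrin of cartilage, was 2.89-fold higher for laser and 3.27-fold for bur, Itgb1, the shared beta chain of these integrins, 1.75-fold and 1.57-fold, and Ddr2, a receptor tyrosine kinase for fibrillar collagen, 2.30-fold and 1.91-fold. Gp6, the collagen receptor of platelets, was lower in both (log2 -1.10 for laser and -1.02 for bur). Of 13 basement membrane partners, 5 were higher for laser, near the share over all genes, and 9 for bur, and 0 were lower in either. Lamc1, the common laminin gamma chain, was 1.85-fold higher for laser (adjusted p = 0.000947) and 1.82-fold for bur (adjusted p = 0.00113). Lama3, a laminin chain of epithelia, was at least 2.49-fold higher for laser and 3.10-fold for bur, and is counted in both. It was not well above background on any control array, so it passed the filter through treated arrays alone. Hspg2, the proteoglycan perlecan, passed for bur (log2 0.56, adjusted p = 0.0206) and not for laser (log2 0.27, adjusted p = 0.217).

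Among 10 proteins that bind collagen fibrils, 4 were higher for laser, near the share over all genes, and 5 for bur, and 0 were lower in either. Omd, osteomodulin, a proteoglycan of bone, was 6.36-fold higher for laser (adjusted p = 3.76e-05) and 5.26-fold for bur (adjusted p = 0.000102), and Bgn, biglycan, 4.37-fold and 4.05-fold. Dcn, decorin, was 2.38-fold higher for laser and 1.92-fold for bur. Of 8 regulators of collagen genes, 5 were higher and 1 lower for laser and 6 were higher and 1 lower for bur. Runx2, the factor of osteoblast commitment, was 4.53-fold higher for laser (adjusted p = 6.39e-05) and 3.99-fold for bur (adjusted p = 0.000132), Ccn2, connective tissue growth factor, 3.29-fold and 3.24-fold, and Creb3l1, a factor known in mouse to drive Col1a1 in osteoblasts, 2.68-fold and 2.53-fold. Tgfb1, a growth factor that induces collagen synthesis, was lower in both (log2 -0.72 for laser and -0.72 for bur).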

How the data were processed

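RNA of 12 bone samples was hybridised to one-colour Agilent arrays (Cy3, 200 ng). Per the file headers, spots were read with Agilent Feature Extraction 11.0.1.1, and the deposited intensity values are processed signals after background subtraction, not scaled between arrays. The authors also deposited log2 quantile-normalized values and a table for each comparison with log2 fold changes and p-values; their filter and model are not given in the sources used here.

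Control spots and spots flagged as outliers were left out, and the log2 signals of the remaining spots of a probe were averaged. Each array's 75th percentile of these log2 values was then subtracted, and 30140 of 45598 probes passed the filter. On each array 67.8% to 73.7% of spots were well above background, and with 4 arrays per group the number of arrays limits the precision. No collagen spot was saturated. All 12 arrays entered 1 fit (limma 3.58.1, R 4.3.3, lmFit and eBayes). The fit was also run on simulated arrays with few genes changed and no slide effect. That run cannot show how slides or widespread changes act on the calls here. A gene not well above background on any array of a group has only a bound, so its fold is given as at least the bright group's mean over the dim group's mean, in which each array enters at its lowest signal well above background or, where that is higher, at what the dim probe itself read. RefSeq names matched 21184 probes (46.5%), and other probes kept the name of the array design. Members, classes, partner lists and markers were chosen with earlier results of these data known. Named in full were main bone, basement membrane and type VI chains, the 3 genes of each class and partner list with the smallest adjusted p in each comparison with control, and genes whose probes disagreed or were dim in a group. Alternatives changed the scaling, background correction, filter, probe choice, arrays, covariates, variance model and minimum fold.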

Additional observations from a re-analysis of the deposited data

Results flagged for a closer look

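In 4 of 114 groups of 4 arrays, over the 37 chains, Col4a3bp and 3 groups, a single array stood far from the others by Dixon's criterion, which chance alone gives in about 5% of groups. Col1a1 was 10.57 on bur replicate 1, against 9.75 on the nearest bur array. Col13a1 was 2.73 on laser replicate 2, against 3.42 on the nearest laser array. Col14a1 was -4.20 on laser replicate 4, against -2.39 on the nearest laser array. Col4a2 was -2.24 on control replicate 2, against -1.62 on the nearest control array.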

How the results depend on the processing

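Without 1 array at a time, the number of collagen chains higher for laser lay between 14 and 19 and lower between 3 and 5, higher for bur between 18 and 23 and lower between 2 and 4, and it was 0 in both directions for laser against bur. Bur calls of lower level were 4 without laser replicate 4, since all arrays share the estimate of spread, 4 with the mean of a gene's kept probes, 4 with treated arrays of the first slide only and 1 with only probes above background on all arrays. Against a minimum log2 fold change of 1, calls fell to 3 higher and 0 lower for laser and 1 higher and 0 lower for bur, since that test asks for a change beyond 1 and not beyond 0. In the other settings, 13 to 17 chains were higher for laser and 18 to 23 for bur. No called difference changed sign. Of the 20 laser calls 17 and of the 24 bur calls 20 stayed called whichever array was left out.

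Over all genes the minimum left 274 higher and 49 lower for laser and 128 and 42 for bur, against 7403 and 4043 and 7529 and 4204. Lower calls for laser were 2592 with the second slide only, and higher calls for bur were 4853 with normexp. For laser against bur, 1 gene was called, 5 higher with normexp and 9 higher and 1 lower with the slide as a block. The causes were not tested.

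Replicate numbers were not treated as pairs in the main fit. Deviations of same-numbered arrays were all positively correlated, from 0.045 to 0.58. Between laser and bur they reached 0.58, 0.52 and 0.40 for replicates 1, 3 and 4. Most arrays, though not every one, correlated best with their own number. Laser and bur arrays of the same number also shared a slide. With the replicate block 15 chains were higher and 4 lower for laser, 23 higher and 3 lower for bur, and 0 either way between laser and bur.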

Other observations

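Within groups, collagen levels were tightest in bur bone. The SD over 4 arrays had a median over the 37 chains of 0.47 on the log2 scale in laser bone (range 0.10 to 1.42), 0.32 in bur bone (0.059 to 1.51) and 0.43 in control bone (0.15 to 1.07). The difference between these spreads was not tested.

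In the authors' deposited tables, which list 33 of the 37 chains, 11 were called higher and 3 lower for laser against control, and 19 higher and 3 lower for bur against control. Among the 17 genes with several kept probes, 0 had probes that passed in opposite directions in a comparison.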
